A study of Mus musculus with 3 samples.

Results

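The genes described here are the BCL2 family, the caspases and the death receptors with their partners, the machinery through which a mammalian cell starts or holds back programmed cell death. The set holds 39 of the 55573 genes listed, each found by its symbol in the gene name column, and every symbol matched exactly 1 gene. The values came from UMI-RNAseq of NIH3T3 cells, an established line of mouse embryonic fibroblasts, in which random molecular tags allow PCR copies to be removed before counting. There were 3 libraries, library 1, library 2 and library 3, and 1 condition, so no condition was compared with another. The cells carried no treatment in the labels and, per the methods, were detached with trypsin and washed before lysis. Whether the libraries came from separate cultures is not stated, so each SD below may cover technical spread only.

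Levels are given as FPKM as deposited, that is, fragments per kilobase of gene for every 1000000 fragments counted. The libraries rested on 13959723 to 14423209 counted fragments, totals that were inferred from the FPKM values. The extraction text of the labels speaks of retina, so the cell type was checked against marker genes. All 10 fibroblast markers lay at 1 FPKM or more, led by Fn1 (fibronectin) at 4377 ± 86.1 FPKM (SD, n = 3), and their summed level ranged from 9812 to 9935 FPKM. Of 12 retina markers, only Rbpms, an RNA-binding protein gene also used outside the retina, reached 1 FPKM, at 57.2 ± 3.32 FPKM (SD, n = 3). The 12 summed to between 56.0 and 61.6 FPKM, with Nrl, a photoreceptor factor, at 0 in every library. Of 8 immune markers, 2 reached 1 FPKM, the higher being Lyz2 at 2.54 ± 0.368 FPKM (SD, n = 3). The 8 summed to between 4.43 and 5.57 FPKM, with Cd3e and Itgam at 0.

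In the mitochondrial route, BH3-only proteins sense damage or lost growth signals and bind the pro-survival members of the BCL2 family, which otherwise keep the effectors BAX and BAK from opening the outer mitochondrial membrane. Once it opens, cytochrome c escapes and assembles with APAF1 into the apoptosome, which activates caspase-9, while SMAC/DIABLO frees caspases from the inhibitor of apoptosis proteins (IAPs). In the death receptor route, ligand-bound receptors recruit FADD and caspase-8, with cFLIP as the brake, and where caspase-8 is held off, RIPK1, RIPK3 and MLKL can carry out necroptosis. Fibroblasts are known to use both routes.

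Most of the set was expressed. A mean of at least 1 FPKM was found for 34 of the 39 genes, beside 23.2% of all 55573 genes and 49.2% of the 21980 protein-coding genes. Bcl2a1a, Bik, Hrk, Casp1 and Fasl were the 5 below that limit. Among the 34, the median of the means was 21.9 FPKM, and the protein-coding genes at 1 FPKM or more had the same median, 21.9 FPKM. Of the 39, 17 lay above it. As deposited, levels ran from 186.2 FPKM for Cflar, the gene of cFLIP, to 1.80 FPKM for Fadd, the adaptor of the same receptor complex. The plot of each gene's level by library shows the roles side by side.

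**Figure D1:**
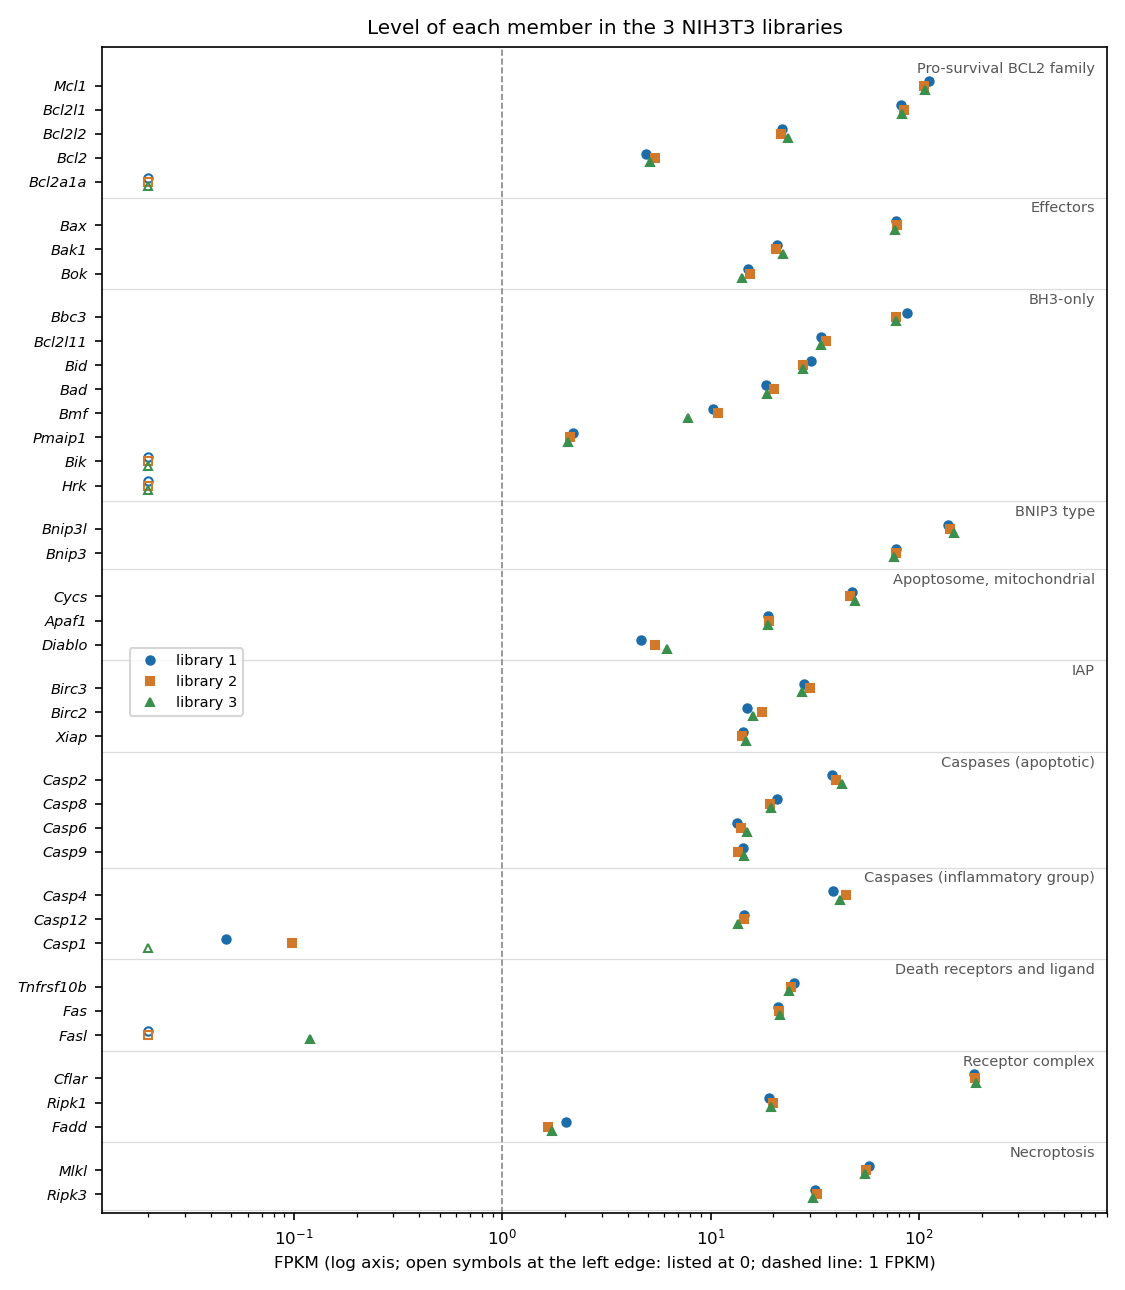
FPKM (horizontal log axis) of each of the 39 genes, grouped by role, with 1 symbol per library and open symbols at the left edge for genes listed at 0. The 34 genes to the right of the dashed line at 1 FPKM span from 1.80 for Fadd to 186.2 for Cflar as means, and the 3 libraries of a gene mostly overlie each other.

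On chromosomes 1 and 9, members that lie close together in the genome had levels far apart. The sequences upstream of their RefSeq starts are shown for that reason. On chromosome 1, Casp8, the initiator caspase of the receptor route, lies 36.49 kb from Cflar, its catalytically inactive relative, and the mean of Casp8 was 0.107 times that of Cflar. On chromosome 9, Casp1, Casp4 and Casp12 of the inflammatory caspase group lie in a row, Casp1 1.563 kb from Casp4 and Casp12 8.647 kb from it. Casp4 had a mean of 41.7 FPKM, Casp12 had 14.2 FPKM and Casp1 had 0.0485 FPKM. Another pair of neighbours, Birc2 and Birc3, lay closer in level, Birc2 at 0.571 times Birc3. Mcl1, the highest pro-survival member, is shown as an example rich in CG. In the GENCODE M21 annotation Casp8 begins at 58795374, so its window lies inside the annotated gene and not upstream of it. Each run is the 250 bases before the RefSeq gene start on GRCm38.p6. It is written 5′ to 3′ on the strand of the gene, with every CG dinucleotide in capitals.
Cflar, chr1:58711241-58711490, plus strand: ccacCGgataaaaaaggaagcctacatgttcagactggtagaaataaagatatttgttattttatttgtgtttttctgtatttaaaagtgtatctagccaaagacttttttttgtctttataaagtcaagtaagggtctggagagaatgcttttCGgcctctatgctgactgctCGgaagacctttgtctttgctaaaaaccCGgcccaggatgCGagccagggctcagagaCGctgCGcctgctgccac
Casp8, chr1:58802252-58802501, plus strand: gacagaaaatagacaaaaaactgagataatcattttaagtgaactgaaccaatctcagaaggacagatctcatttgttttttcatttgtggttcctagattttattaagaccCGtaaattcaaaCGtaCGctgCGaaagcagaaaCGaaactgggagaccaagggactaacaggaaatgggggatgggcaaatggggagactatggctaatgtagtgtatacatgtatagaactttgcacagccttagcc
Casp4, chr9:5308599-5308848, plus strand: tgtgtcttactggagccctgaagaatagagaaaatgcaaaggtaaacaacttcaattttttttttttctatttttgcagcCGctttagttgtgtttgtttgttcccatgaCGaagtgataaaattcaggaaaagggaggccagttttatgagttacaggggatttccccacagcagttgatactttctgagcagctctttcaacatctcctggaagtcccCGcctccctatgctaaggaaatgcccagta
Casp12, chr9:5345226-5345475, plus strand: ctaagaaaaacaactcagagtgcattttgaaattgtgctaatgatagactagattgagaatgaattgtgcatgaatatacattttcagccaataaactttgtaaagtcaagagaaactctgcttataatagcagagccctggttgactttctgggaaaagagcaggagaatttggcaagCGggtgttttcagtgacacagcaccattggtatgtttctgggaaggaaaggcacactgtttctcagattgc
Casp1, chr9:5298267-5298516, plus strand: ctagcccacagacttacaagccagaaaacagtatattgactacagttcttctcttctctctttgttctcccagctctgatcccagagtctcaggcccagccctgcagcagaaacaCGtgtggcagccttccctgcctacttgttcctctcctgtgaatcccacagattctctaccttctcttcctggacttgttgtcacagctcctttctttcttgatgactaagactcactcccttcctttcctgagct
Mcl1, chr3:95658471-95658720, plus strand: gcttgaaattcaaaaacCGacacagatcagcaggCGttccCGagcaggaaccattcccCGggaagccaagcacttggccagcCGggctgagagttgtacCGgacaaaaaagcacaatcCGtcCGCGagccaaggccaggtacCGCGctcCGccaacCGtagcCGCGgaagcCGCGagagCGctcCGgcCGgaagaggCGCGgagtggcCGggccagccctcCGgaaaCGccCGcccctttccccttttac

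The windows of Cflar and the neighbouring caspase genes held few CG dinucleotides, with 7 for Cflar, 5 for Casp8, 3 for Casp4 and 1 each for Casp12 and Casp1. Of the neighbours Birc2 and Birc3, Birc2 held 31 and Birc3 held 6. Mcl1 held 26. RefSeq gave such a window for 35 of the 39 genes, all but Bik, Bnip3l, Tnfrsf10b and Pmaip1. The windows of Casp8, Xiap, Hrk, Bbc3 and Bak1 lie wholly inside the GENCODE M21 gene, downstream of its annotated start. Over all 20706 genes with a window and a value, 92.5% held a CG and 45.9% held at least 10, on a motif that reads the same on both strands. At least 10 were found in 76.8% of the 9034 windows of genes at 1 FPKM or more and in 19.1% of the 9538 windows of genes under 0.1 FPKM. Of the 31 expressed members with a window, 20 held at least 10, with a median of 14 and a range from 1 to 42. The median for all expressed genes was 16. Apaf1 had the 42, and Xiap and Casp12 had 1 each, at 18.9, 14.5 and 14.2 FPKM. Of the 4 windows of members under 1 FPKM, only that of Hrk, a BH3-only gene best known from neurons, held at least 10, with 21. The letters TATAAA, searched on both strands, occurred in 12.2% of all windows and in 1 of the 35 members' windows, that of Cflar. These counts describe letters in the windows and no binding was measured.

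**Figure D2:**
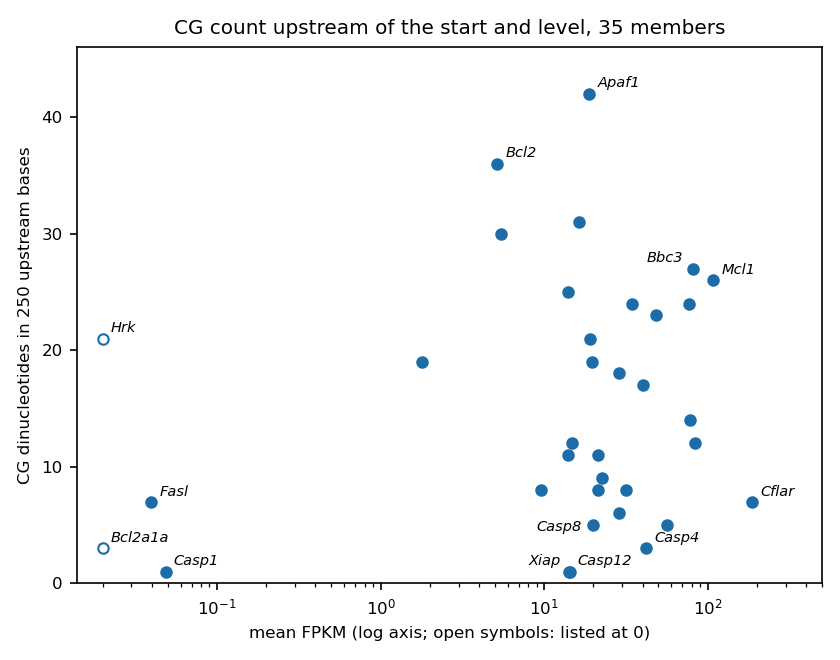
Number of CG dinucleotides in the 250 bases upstream of the RefSeq start (vertical axis) against mean FPKM over 3 libraries (horizontal log axis), 1 point per gene for the 35 genes with a window. Hrk combines 21 CG with a level of 0, whereas Cflar combines 7 CG with 186.2 FPKM.

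Among the pro-survival members, Mcl1 and Bcl2l1 made up most of the transcripts and Bcl2 itself was low. MCL1 is a short-lived protein that binds several BH3-only proteins, and its gene had 111.6, 106.3 and 107.1 FPKM in libraries 1, 2 and 3 (108.3 ± 2.83, SD, n = 3), which ranked 1109 among the 12905 genes at 1 FPKM or more. Bcl2l1, the gene of BCL-XL, had 82.4, 84.9 and 83.0 FPKM. Bcl2l2, the gene of BCL-W, had 22.1, 21.8 and 23.5 FPKM. The libraries of these genes did not overlap one another, so the order Mcl1, Bcl2l1, Bcl2l2 was the same in all 3. Bcl2, the founding member of the family, followed with 4.92, 5.40 and 5.10 FPKM (5.14 ± 0.241, SD, n = 3). Bcl2a1a, a pro-survival gene mainly of blood cells, was listed at 0 in every library, and a count of 0 allows up to 0.254 to 0.262 FPKM at 3 fragments. For Bcl2a1a, 55.2% of its 75-nt words also occur in other genes, chiefly in Bcl2a1d, which was listed at 0 as well. Mcl1 held 49.4% ± 0.981 of the summed pro-survival level of 219.3 ± 1.37 FPKM (SD, n = 3).

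Within a library, Mcl1 lay above Bcl2l1 by a factor of 1.35, 1.25 and 1.29, which gave a log2 ratio of 0.38 ± 0.06 (SD, n = 3; exact sign-flip permutation p = 0.25). Bcl2l1 lay above Bcl2 by a factor of 16.7, 15.7 and 16.3, a log2 ratio of 4.02 ± 0.05 (SD, n = 3; exact sign-flip permutation p = 0.25). With fragments not divided by length, 5016 nt for Bcl2 and 1473 nt for Bcl2l1, that log2 ratio was 2.25. With 3 libraries, 0.25 is the smallest p that this two-sided exact permutation test can give, and all 10 ratios computed in the same family had a p and an adjusted p of 0.25. What can be said beyond that is that each ratio kept its direction in 3 of 3 libraries.

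The effectors were led by Bax. BAX and BAK form the pores in the outer mitochondrial membrane, and BOK is a relative that can act without them. Bax had 77.8, 78.8 and 76.8 FPKM (77.8 ± 1.01, SD, n = 3). Bak1 had 20.9, 20.6 and 22.1 FPKM (21.2 ± 0.809, SD, n = 3). Bok had 15.1, 15.4 and 14.1 FPKM (14.9 ± 0.662, SD, n = 3). No library of Bax came near those of the other two, and the libraries of Bak1 lay above those of Bok. Bax was higher than Bak1 by a factor of 3.67 ± 0.182 (SD, n = 3; log2 ratio 1.87; exact permutation p = 0.25) and held 68.3% ± 0.362 of the summed effector level. With fragments not divided by length, the log2 ratio of Bax over Bak1 was 0.39. The sum of the 5 pro-survival genes exceeded that of the 3 effectors by a factor of 1.94, 1.90 and 1.93 in libraries 1, 2 and 3. Neither sum includes the pro-apoptotic BH3-only genes, whose levels follow below. The mean factor was 1.93 ± 0.0210 (SD, n = 3; log2 ratio 0.94; exact permutation p = 0.25). Without division by length its log2 value was 2.05. This ratio compares transcript levels, and protein amounts were not measured.

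Of the 8 BH3-only genes, 6 were at 1 FPKM or more, and their levels covered a wide range. Bbc3, the gene of PUMA and a target of p53, had 88.0, 77.3 and 77.6 FPKM (81.0 ± 6.07, SD, n = 3). Its value in library 1 lay above the other two, which fell within the range of Bax. Bcl2l11, the gene of BIM, which responds to loss of growth factors, had 34.0, 35.9 and 33.7 FPKM. Bid, whose protein is cut by caspase-8 and so links the receptor route to mitochondria, had 30.3, 27.7 and 27.8 FPKM. Bad, whose protein is held inactive by survival kinases, had 18.4, 20.1 and 18.6 FPKM. These 4 genes thus spanned from 19.1 FPKM for Bad to 81.0 FPKM for Bbc3 as means. Bmf, tied to the cytoskeleton, had 10.2, 10.8 and 7.79 FPKM and was lowest in library 3. Pmaip1, the gene of NOXA, another p53 target and a partner of MCL1, had only 2.19, 2.12 and 2.07 FPKM. Bik and Hrk were listed at 0 in every library. A count of 0 allows up to 0.239 to 0.247 FPKM for Bik and up to 0.0690 to 0.0713 FPKM for Hrk at 3 fragments. Bbc3 held 46.3% ± 1.79 of the BH3-only sum of 174.9 ± 7.84 FPKM (SD, n = 3).

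Bnip3l and Bnip3, which encode outer mitochondrial membrane proteins best known as mitophagy receptors induced by low oxygen, were among the highest of the set. Bnip3l had 138.3, 140.9 and 147.4 FPKM and Bnip3 had 77.9, 77.4 and 76.3 FPKM. The ratio of Bnip3l over Bnip3 was 1.84 ± 0.0804 (SD, n = 3; log2 ratio 0.88; exact permutation p = 0.25). Both genes have copies elsewhere in the genome. Bnip3l shares 16.9% of its 75-nt words with the pseudogene Bnip3l-ps on chromosome 12, which itself was listed at 16.6 FPKM. Of the words of Bnip3, read on either strand, 34.4% occur in other genes. The largest share, 20.4%, lies in AC160336.1 on chromosome 14, which had a mean of 0.0133 FPKM. Not all of them are copies elsewhere, as 12.9% occur in Gm45507, an antisense gene at the Bnip3 locus on chromosome 7, listed at 0. Reads in such stretches could be counted for either gene or for none.

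Downstream of the mitochondria, cytochrome c transcripts exceeded those of its partner. Cycs, the gene of cytochrome c, had 47.9, 46.9 and 49.5 FPKM, and Apaf1, the scaffold of the apoptosome, had 18.8, 19.2 and 18.9 FPKM. Cycs also shares 23.9% of its words with the copy Gm10053 on chromosome 19, listed at 10.1 FPKM. The ratio of Cycs over Apaf1 was 2.54 ± 0.0897 (SD, n = 3; log2 ratio 1.34; exact permutation p = 0.25). Diablo, which encodes the IAP antagonist SMAC, was low, with 4.66, 5.42 and 6.19 FPKM. Its exons overlap those of B3gnt4 on the opposite strand over 21.5% of their length and those of Gm49027 on the same strand over 19.3%, and these genes had means of 0 and 0.313 FPKM. Reads in these stretches could be counted for no gene, so the level of Diablo and its ratio to Xiap are uncertain to that extent.

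The 3 IAP genes of the set had means from 14.5 FPKM for Xiap to 28.5 FPKM for Birc3. Birc3 (cIAP2) had 28.2, 30.0 and 27.4 FPKM, and its neighbour Birc2 (cIAP1), 11.635 kb away on chromosome 9, had 15.02, 17.7 and 16.0 FPKM. Both are ubiquitin ligases of the TNF receptor complex. Xiap, a direct inhibitor of caspases, had 14.3, 14.2 and 14.9 FPKM. Birc3 lay above the other two in every library, and the lowest library of Birc2 was just above the highest of Xiap. Without division by length the order was another, with 2033 fragments over all libraries for Xiap, 1457 for Birc3 and 1229 for Birc2. Diablo stood at 0.325, 0.382 and 0.416 times Xiap, a log2 ratio of -1.43 that was below 0 in 3 of 3 libraries (exact permutation p = 0.25).

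Apoptotic caspases were all expressed at moderate levels. Casp2, an initiator activated through PIDD, had 38.4, 39.9 and 42.7 FPKM. Casp8 had 20.8, 19.2 and 19.6 FPKM. Casp6, an executioner, had 13.4, 13.9 and 14.9 FPKM, and Casp9, the initiator bound to the apoptosome, had 14.3, 13.6 and 14.4 FPKM. Casp6 and Casp9 overlapped, with means of 14.1 FPKM each, whereas Casp2 lay above all others and held 45.6% ± 1.22 of their sum of 88.4 ± 2.80 FPKM (SD, n = 3). The lead of Casp2 depends on the gene length used. Divided by the longest annotated isoform, Casp2 had a mean of 13.99 FPKM, below Casp8 at 15.3 FPKM.

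The inflammatory group was represented by Casp4 and Casp12 but hardly by Casp1. Casp4, mouse caspase-11, which recognizes bacterial lipopolysaccharide inside the cell, had 38.8, 44.7 and 41.7 FPKM. Casp12, a caspase tied to the endoplasmic reticulum, had 14.5, 14.6 and 13.6 FPKM. Casp1, which matures interleukin-1β, was backed by 1 fragment in library 1, 2 in library 2 and 0 in library 3. These are 0.0474, 0.0980 and 0 FPKM, with exact Clopper-Pearson 95% intervals from 0.00120 to 0.264, from 0.0119 to 0.354 and from 0 to 0.176 FPKM, which cover counting error only. The intervals overlapped, so a difference in Casp1 between libraries was not detectable at this depth. All of them ended below 1 FPKM. Casp4 held 74.4% ± 1.56 of the group's sum (SD, n = 3).

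In the death receptor route, receptors and brake were present, the adaptor was low and the ligand was nearly absent from the counts. Tnfrsf10b, the mouse TRAIL receptor, had 25.1, 24.3 and 23.7 FPKM. Fas had 21.1, 21.4 and 21.5 FPKM, the gene with the second lowest relative spread of the set at 0.997%. Fas lay below Tnfrsf10b in each library, by a ratio of 0.842, 0.878 and 0.907 (log2 ratio -0.19; exact permutation p = 0.25). Fasl, the FAS ligand, known from T cells and natural killer cells, had 0 fragments in libraries 1 and 2 and 2 fragments in library 3. The latter gave 0.119 FPKM with an exact Clopper-Pearson 95% interval from 0.0144 to 0.431. For libraries 1 and 2, the intervals of the counts of 0 ended at 0.218 and 0.225 FPKM, and 3 fragments would have given 0.177 and 0.183 FPKM. Fadd had 2.03, 1.65 and 1.74 FPKM, which rested on 301 fragments over all libraries. Ripk1, the kinase that directs signalling at the TNF receptor, had 19.0, 19.9 and 19.6 FPKM.

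Cflar was the highest gene of the set, at 184.8, 186.2 and 187.6 FPKM (186.2 ± 1.44, SD, n = 3), and ranked 530 among the genes at 1 FPKM or more. It held 89.7% ± 0.107 of the sum of Cflar, Ripk1 and Fadd. Cflar over Casp8 was 8.89, 9.67 and 9.58, with a mean of 9.38 ± 0.428 (SD, n = 3; log2 ratio 3.23; exact permutation p = 0.25). The size of this ratio depends on the gene length used. The deposited FPKM of Cflar rests on 1830 nt, the mean over 13 isoforms of 351 to 6572 nt, and with the longest isoform for both genes the log2 ratio was 1.76.

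Necroptosis genes were well expressed. Mlkl, whose protein ruptures the plasma membrane, had 57.3, 56.0 and 54.9 FPKM, and Ripk3, the kinase that activates it, had 31.8, 32.5 and 30.9 FPKM. Ripk1 stood at 0.599, 0.615 and 0.633 times Ripk3 (log2 ratio -0.70 ± 0.04, SD, n = 3; exact permutation p = 0.25). Without division by length the ratio turned to 0.89 on the log2 scale, as Ripk1 was given 2844 nt and Ripk3 947 nt. The plot of the 10 ratios shows that the libraries of each stayed on 1 side of 0.

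**Figure D3:**
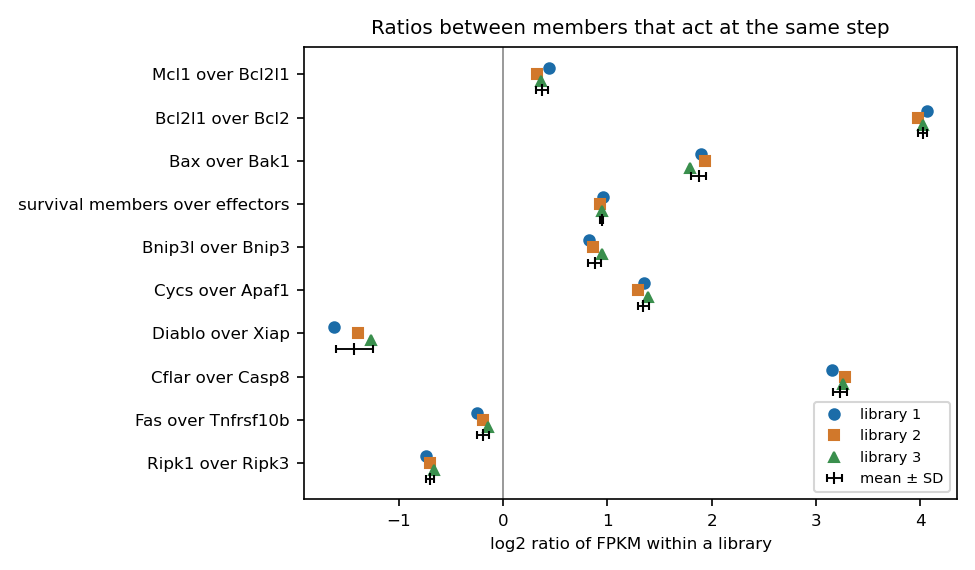
Log2 ratio of FPKM between members within a library (horizontal axis) for the 10 ratios computed, with 1 symbol per library and a bar for the mean ± SD over 3 libraries. Bcl2l1 over Bcl2 is the farthest to the right at 4.02 and Diablo over Xiap the farthest to the left at -1.43, and no ratio has libraries on both sides of 0.

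Ordered by mean, the 34 expressed members formed 33 neighbouring pairs, and in 16 of them the library values overlapped. Cflar, Bnip3l, Mcl1 and Bcl2l1 did not overlap with one another, but Bcl2l1 overlapped with Bbc3. Bbc3, Bax and Bnip3, with means of 81.0, 77.8 and 77.2 FPKM, overlapped in turn. From Fas at 21.3 FPKM down to Apaf1 at 18.9 FPKM every neighbour overlapped, as did those from Birc2 at 16.3 FPKM down to Casp9 at 14.1 FPKM. Each gene in these runs overlapped with its direct neighbours, though genes farther apart in a run, such as Fas and Casp8 or Birc2 and Xiap, did not overlap. Below them, Bmf, Pmaip1 and Fadd stood apart from their neighbours, while Diablo and Bcl2 overlapped.

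No member differed between the libraries beyond counting error after correction. The fragments behind each FPKM were recovered as whole numbers, and a chi-square test of equal shares over the libraries was run on all 15381 genes with at least 15 fragments, with Benjamini-Hochberg adjustment over all of them. Of these genes 1.81% had an adjusted p under 0.05, and of the 34 members tested 0 did. Among the 7409 genes whose 75-nt words were all their own, 0.756% did. At an unadjusted p under 0.05 there were 3 members, beside 9.05% of all genes tested. Bbc3 had 1137, 967 and 995 fragments, Bmf had 204, 209 and 154, and Casp4 had 583, 651 and 622. In the chi-square test Bbc3 reached an unadjusted p of 0.0029 (adjusted 0.132), Bmf 0.0049 (adjusted 0.188) and Casp4 0.0429 (adjusted 0.524). Bbc3 was highest and Casp4 lowest in library 1, while Bmf was lowest in library 3. Over all genes, the same test between pairs of libraries called 1.32% for libraries 1 and 2 and 1.30% for libraries 1 and 3. For libraries 2 and 3 it called 0.744%. The 5 members under 1 FPKM had fewer than 15 fragments and were not tested.

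Across the tested members, the coefficient of variation (CV, the SD as a percentage of the mean) had a median of 3.59%. The CV expected from counting error, the inverse square root of a gene's mean fragments, had a median of 4.21%. Under counting error alone, an SD of 3 values falls below its expected size more often than above it. These medians therefore do not show a spread smaller than counting error. The observed CV exceeded the counting value for 13 of the 34. Bmf had the largest CV, 16.8% against 7.27% from counting, followed by Diablo with 14.2% against 9.62% and Fadd with 10.8% against 9.98%. Pmaip1, with 12.6% from counting, had a CV of 2.73%. Cflar had the smallest CV, 0.771%. The median chi-square was 1.60 for the members, 1.58 for all genes tested and 1.39 for counting error alone.

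**Figure D4:**
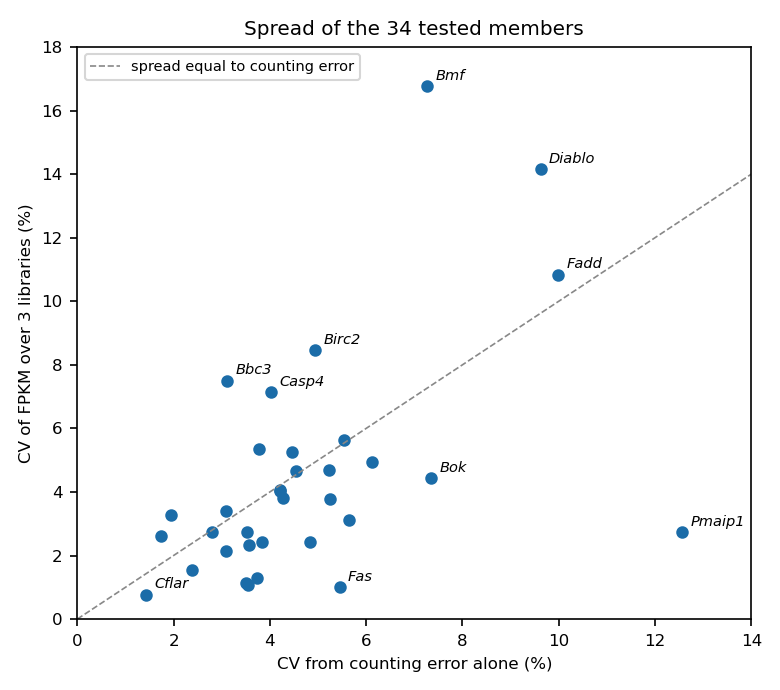
CV of FPKM over 3 libraries (vertical axis, %) against the CV expected from counting error (horizontal axis, %) for the 34 tested members, with a dashed line where they are equal. Bmf at 16.8% lies farthest above the line and Pmaip1 at 2.73% farthest below it.

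How far a level can be compared between genes depends on the length it was divided by. The deposited values rest on the mean length of a gene's annotated isoforms, for Mcl1 2138 nt between 858 and 3418 nt. The longest isoform was 1 to 3.59 times as long as the length used, with a median of 1.79 over the 39 genes, those at 0 included. It was at most 1.5 times as long for 10 genes and more than 2 times for 16. Under that length the order at the top became Mcl1 at 67.7 FPKM, Bnip3l at 56.8, Cflar at 51.8, Bcl2l1 at 47.9, Bax at 45.8 and Bbc3 at 39.99 FPKM. Cflar thus moved from the first to the third place. At the bottom of the expressed members, Pmaip1 at 1.63 FPKM then lay below Fadd at 1.80 FPKM. All 34 genes stayed at 1 FPKM or more, and Bcl2 at 3.59 FPKM stayed below the other expressed pro-survival members. Without any division by length, the log2 ratio was 1.74 for Bnip3l over Bnip3, 0.64 for Cycs over Apaf1, -2.66 for Diablo over Xiap, -1.26 for Fas over Tnfrsf10b and 0.91 for Mcl1 over Bcl2l1.

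**Figure D5:**
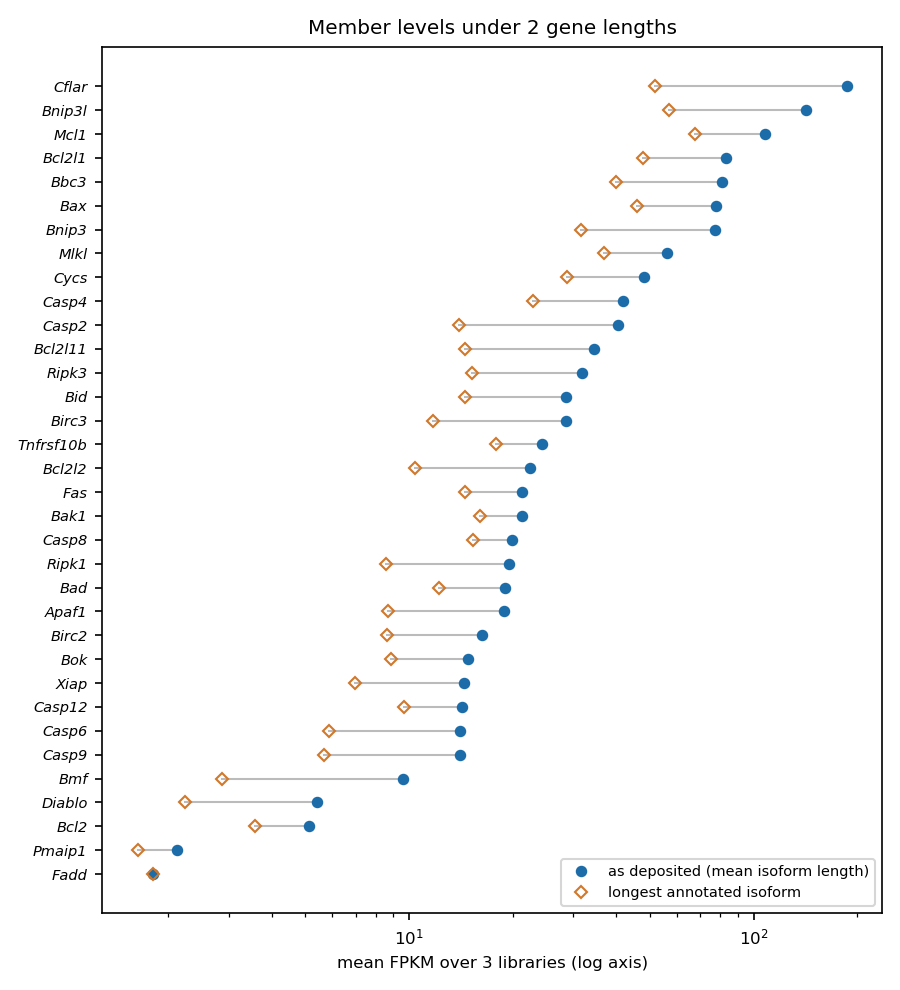
Mean FPKM over 3 libraries (horizontal log axis) of the 34 expressed members as deposited (filled circles) and divided by the longest annotated isoform (open diamonds). Cflar falls from 186.2 to 51.8 and Mcl1 from 108.3 to 67.7, while Fadd, with 1 isoform, stays at 1.80.

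Several members overlap other genes, and the sources used here do not state whether strand was used in counting. Bid overlaps Bcl2l13, a BCL2-like gene on the opposite strand with a mean of 27.0 FPKM, over 17.7% of its exons. Bad overlaps Gpr137, at 13.6 FPKM on the opposite strand, over 20.5%. Ripk1 overlaps Serpinb6a, at 236.5 FPKM on the opposite strand, over 2.89%. Without strand, reads in these stretches cannot be assigned to 1 of the genes, so the levels of Bid, Bad and Ripk1 are uncertain to that extent. The other overlapping genes had means from 0 to 3.22 FPKM and covered between 1.81% and 22.3% of a member's exons. They were Ggnbp1 beside Bak1, Gm45507 beside Bnip3, Gm20521 beside Bcl2l2, Gm45808 beside Bax, Gm17084 beside Ripk1, Faddos beside Fadd, D630008O14Rik beside Bcl2, Cela2a and Ctrc beside Casp9, and AC157931.1, B3gnt4 and Gm49027 beside Diablo. The highest of these was AC157931.1. A low level of the other gene does not remove the limit, as reads in a shared stretch could be counted for neither gene. Overlap on the opposite strand covered 25.5% of the exons of Bak1 and 22.3% of those of Bnip3. On the same strand it covered 19.3% for Diablo, 13.3% for Bcl2l2 and 12.2% for Bax, where strand would not separate the genes. At least 5% of the 75-nt words were shared with another gene for 13 members and none for 18.

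Among 54 further genes of the same pathways, 40 lay at 1 FPKM or more, and the median level was 13.0 FPKM. Of the 45 tested, 1 had an adjusted p under 0.05 in the chi-square test between libraries, beside 1.81% of all genes. It was Birc6, a giant IAP, with 47.0, 51.4 and 50.2 FPKM. Its adjusted p in that chi-square test across all genes was 0.0431. Acin1, a chromatin condensation factor cut by caspases, had 119.2 ± 5.15 FPKM (SD, n = 3). Of 13 further BCL2-like and BAX-binding genes, 9 were expressed, led by Tmbim6 (BAX inhibitor 1) at 558.0 ± 7.55 FPKM (SD, n = 3), and Bcl2a1b, Bcl2a1d and Bcl2l14 were listed at 0. Of 7 mitochondrial release and IAP-like genes, 6 were expressed, Birc6 being the highest. Of 11 death ligands and receptors, 5 were expressed, led by Tnfrsf12a, the TWEAK receptor, at 297.5 ± 4.06 FPKM (SD, n = 3), and the ligand gene Tnf and the receptor gene Ngfr were listed at 0. Tnfrsf1a, the TNF receptor that carries a death domain, had 159.4 ± 4.08 FPKM (SD, n = 3). All 10 receptor complex adaptors were expressed, the highest being Rbck1, a subunit of the linear ubiquitin ligase complex, at 83.0 ± 1.64 FPKM (SD, n = 3). Of 7 necroptosis and pyroptosis genes, 4 were expressed, led by Ninj1, which takes part in plasma membrane rupture, at 53.7 ± 1.22 FPKM (SD, n = 3).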

How the data were processed

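UMI-RNAseq of 3 NIH3T3 libraries was analysed. The authors extracted UMIs with UMI-tools (1.0.0), mapped reads with Hisat2 (2.0.4 in the submitters' processing notes), deduplicated them by UMI, counted per gene with HTSeq 0.6.1 and deposited the counts as FPKM. The notes also list DESeq 1.10.1. The build and annotation are not given in the sources used here. Both deposited tables hold the same values.

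FPKM were used without scaling, pseudocount or filter. Gene positions and isoform lengths came from GENCODE M21 (GRCm38), which contained 55480 of the 55573 gene IDs. Fragments were recovered as FPKM × length × library total. The library totals were inferred from genes with 1 isoform. Each of their values gives a total if taken as 1 fragment, and the most frequent total was used. With the rounded mean isoform length they were whole, within a tolerance of 0.0001, for 94.7% of the 26193 genes with a fragment. For the rest, the nearest length within 10% that gave whole numbers was taken, which brought the share to 99.5% by construction. Casp1 was the only member that needed this, with 1462 nt against 1497 nt annotated. Log2 ratios over the libraries were tested by flipping their signs in all combinations (exact permutation test, two-sided), and fragments by a chi-square test. With simulated fragments, the latter called 81.8% of 99 genes changed 2-fold and 98.0% of 100 changed 4-fold in 1 library, and 0.0723% of 15206 unchanged genes. The simulated fragments carried counting error only. In the real libraries the median chi-square of all genes tested was 1.58, beside 1.39 for counting error alone, so these shares need not hold there. The tests were run with scipy 1.17.1 and numpy 2.4.6 under Python 3.11.15, tables were handled with pandas 2.3.3 and plots drawn with matplotlib 3.10.9. For 31 of the 35 upstream windows, the 20 bases after the RefSeq start were found in a GENCODE transcript. UMIs remove PCR copies, and all intervals and limits of 3 fragments cover counting error only.

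The members, their roles, the pathway and marker lists and the ratios were chosen with earlier results of these data known. Named genes are all members, the highest pathway gene of each role and those at 0, overlapping genes, the gene sharing most words with a member (from 5% up) and the highest marker of each list. Tnfrsf1a, Birc6 as a call and the markers at 0 were named in addition, after their values were seen. All columns of values were used. Alternatives were median-of-ratios scaling, leaving out each replicate, the library median, TPM, the longest isoform, no division by length, pseudocounts, added copies, and other limits on FPKM, fragments and adjusted p.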

Additional observations from a re-analysis of the deposited data

How the results depend on the processing

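Of the 100 values recomputed for the main results, 99 kept their direction and their side of the limit. The sizes of the ratios moved with the gene length used, as given beside them. Many of these outcomes were fixed in advance, so the 99 is no measure of robustness. All libraries of a ratio lay on 1 side of 0, so leaving out a replicate, the median or a pseudocount could not turn its sign. A stricter limit on adjusted p could not add calls. The exception was the log2 ratio of Ripk1 over Ripk3, which turned from -0.70 to 0.89 with fragments not divided by gene length. The alternative shows why by its construction, as Ripk1 was given the greater length. Leaving out a replicate left this ratio between -0.72 and -0.68, and all 10 ratios kept their sign, which could not have turned out otherwise. The number of members at 1 FPKM or more was 34 under each alternative except a limit of 5 FPKM, which gave 32. The number of members that differed between libraries was 0 under every alternative, with lowest adjusted p from 0.108 to 0.294. Of the 277 recomputed levels of single members, 69 moved by more than the SD between libraries, of which 34 were under TPM, 33 under the longest isoform and 2 with copies added. Depth limits the members listed at 0, for which up to 0.0690 to 0.262 FPKM at 3 fragments stays possible. No paired analysis was possible because all libraries share 1 condition.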
